A study of Mus musculus with 6 samples.

Results

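Jun, the gene of the transcription factor c-Jun, was examined as a locus of open chromatin in mouse leukemia cells. Accessibility comes from ATAC-seq: a transposase cuts DNA where chromatin is open, and the cut sites are sequenced. The locus comprised the peaks for which the deposited table named Jun as the nearest gene, within 100000 bp of its transcription start site (TSS). This gave 25 of the 175929 peaks in the table. A further 14 peaks named Jun at greater distances.

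The cells were AE9a leukemia cells, which carry the truncated AML1-ETO9a fusion oncogene and GFP, with 1 floxed allele of Usp18 and the UBCER-Cre transgene (Usp18+/f UBCER-Cre). This Cre recombinase is driven by the ubiquitin C promoter and becomes active with tamoxifen. The cells were transplanted into recipient mice, and the spleen was taken 3 days after the first of the injections to sort GFP+Lin-c-Kit+ cells. Mice had received oil (Usp18+/f, replicates 1, 2 and 4) or tamoxifen (Usp18+/Δ, replicates 1, 3 and 4). Both groups thus shared the oncogene, the floxed allele and Cre, and tamoxifen exposure and loss of the allele cannot be told apart. The labels do not tie libraries to mice. The methods of the study describe separate mice for the sorts that were paired with ATAC-seq, while its summary of replication gives fewer ATAC-seq replicates than there are libraries in a group here. SDs and n count libraries, and their spread may be partly technical.

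Jun is the founding member of AP-1, a family of leucine zipper factors that bind DNA as pairs, among Jun proteins or with a Fos, Atf or Batf protein. The kinase JNK phosphorylates c-Jun on its N-terminal part and raises its activity. Jun is an immediate early gene, transcribed within minutes of stress, growth factors or inflammatory signals, and its own promoter is a target of c-Jun. In myeloid cells AP-1 takes part in differentiation, inflammatory responses and leukemia.

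Jun has a single exon of 3187 bp on the minus strand of chromosome 4 (mm10, chr4:95049036-95052222), with its coding part at chr4:95050267-95051271 in RefSeq. The lncRNA Junos is annotated in the opposite direction from within the promoter peak (chr4:95052317-95169036, plus strand), and 7 of the 25 peaks were centred in it. The GENCODE lncRNA Gm12703 runs on the strand of Jun past its end (chr4:95029963-95048370), and 11 peaks were centred there. The promoter is shown first because the peak with the most tags lay on it. These are the 250 bases before the TSS (RefSeq, GRCm38.p6, equal to mm10, chr4:95052223-95052472, minus strand, 5′ to 3′). Capitals mark, in order, the AP-1-like jun2 element (TTACCTCA), a GC box (GGGCGG on the other strand), a CCAAT box, the AP-1-like jun1 element (TGACATCA) and an A/T-rich site of the MEF2 type (CTATTTTTA).

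Jun promoter: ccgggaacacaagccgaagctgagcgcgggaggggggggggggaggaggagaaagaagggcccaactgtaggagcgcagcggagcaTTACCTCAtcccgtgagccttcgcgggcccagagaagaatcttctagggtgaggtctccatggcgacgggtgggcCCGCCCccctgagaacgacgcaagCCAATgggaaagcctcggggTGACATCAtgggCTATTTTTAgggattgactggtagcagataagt

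The jun2 letters began 164 bases and the jun1 letters 45 bases before the TSS. Of 32851 RefSeq promoters of this length, 0.728% held the jun2 letters and 2.93% the jun1 letters on either strand. The AP-1 letters TGANTCA, present in 6.75% of promoters, were not found in that of Jun. The same search was run in 200 bp centred on each peak. Of the 25 Jun peaks, 1 held TGANTCA, against 6.61% of the 175738 peaks placed on the reference. It lay past the end of the gene, 4671 bp from the TSS, and is shown with its AP-1 letters in capitals (chr4:95047451-95047650, minus strand).

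Peak 4671 bp past the TSS: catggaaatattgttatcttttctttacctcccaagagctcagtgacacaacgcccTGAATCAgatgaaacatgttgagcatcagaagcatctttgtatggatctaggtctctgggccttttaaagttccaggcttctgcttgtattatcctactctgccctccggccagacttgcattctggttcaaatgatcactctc

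The RUNX letters TGTGGTT, the core bound by AML1 and by its fusion with ETO, were found in none (0) of the 25 Jun peaks, against 6.91% of all peaks. The CRE letters TGACGTCA, the interferon-stimulated response element and the heat shock element were also in 0 of 25, against 0.575%, 2.04% and 0.27% of all peaks. The GATA letters AGATAA were in 5 of 25, against 15.1%. These are matches of letters in fixed windows, and the sites were not measured. Over all peaks, those with TGANTCA had a median log2 fold change of 0.033 and those with TGTGGTT of 0.027, close to the median of all peaks of -0.001.

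Tags were scaled by DESeq2 size factors, and all levels given here are normalized tags. All tags of the 25 Jun peaks summed to 4392, 4048 and 4300 in the oil libraries and to 6407, 6275 and 5356 in the tamoxifen libraries. Each tamoxifen library lay above each oil library. The group means were 4247 ± 178 and 6013 ± 573 (SD, n = 3 libraries each), a ratio of 1.42. Jun was selected on these same oil and tamoxifen tags, so its change is given as a description, without a test. No other choice of libraries or size factors moved the log2 ratio of 0.50 outside 0.43 to 0.58. Total tags ran from 57.4 to 74.7 M per library and 28.2% to 30.5% of them fell in peaks.

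All 25 Jun peaks had a log2 fold change above 0, from 0.10 to 1.44 with a median of 0.70, whereas 49.7% of all peaks did. By the thresholds of the study, an adjusted p under 0.05 in DESeq2 and a change of more than 2-fold, 0 of 25 were called, beside 0.588% of all peaks called as higher and 0.0659% as lower. At an unadjusted p under 0.05 the count was 17, all higher, beside 6.18% of all peaks as higher and 2.84% as lower, and edgeR with the same thresholds also called 0. Without the fold limit, 11 of 25 passed, all higher, beside 1.22% of all peaks passing as higher and 0.167% as lower. In 20 of 25 the 3 tamoxifen libraries all lay above the 3 oil libraries, beside 11.9% of all peaks, and in 0 they all lay below, beside 10.0%. Leaving out 1 library changed the count of 11 to as few as 6, reached without oil replicate 2 and without tamoxifen replicate 3, and to as many as 16. These shares repeat the contrast on which Jun was selected, and nothing is read from them. Beyond the distance limit, 0 of the 14 peaks passed in DESeq2 (4 at an unadjusted p under 0.05). The nearest of them, 101736 bp upstream, held 96.0, 81.4 and 91.4 tags after oil and 62.3, 36.8 and 88.5 after tamoxifen. Of 9 peaks between 101736 and 110720 bp upstream, 8 had a log2 fold change below 0, and of the 5 still farther ones all 5 were above 0.

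**Figure D1:**
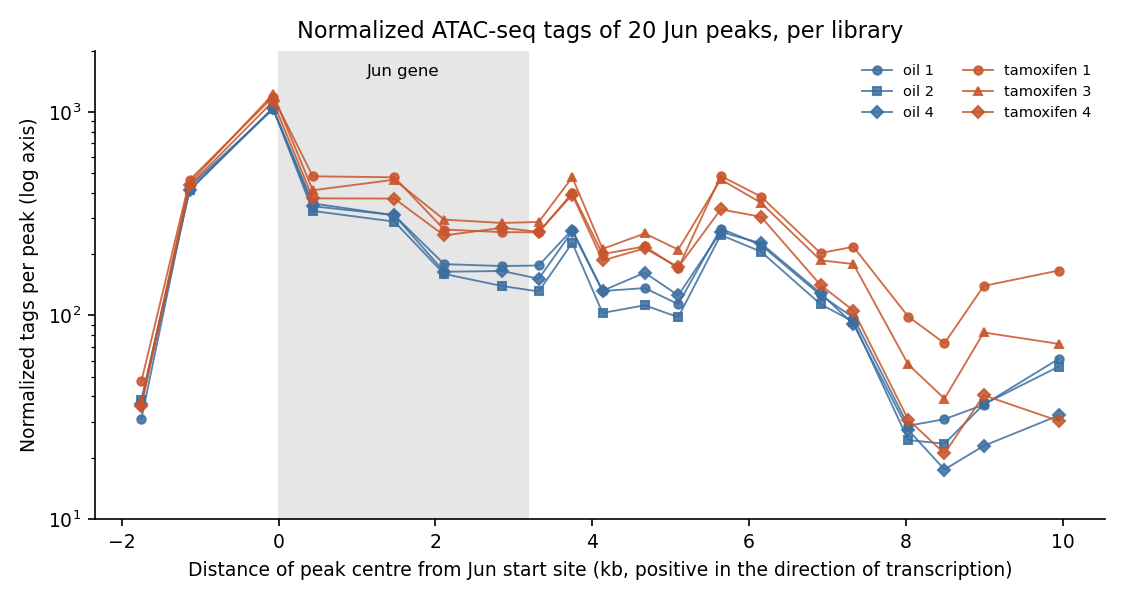
Normalized tags per peak (log axis) against the distance of the peak from the Jun TSS (kb, positive in the direction of transcription), with 1 line per library, for the 20 peaks from 2 kb upstream to 10 kb downstream; grey marks the gene. The lines of the groups lie close together at the promoter and separate through the gene body and past its end, until tamoxifen 4 joins the oil libraries in the last few kb.

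The promoter peak (chr4:95052104-95052481) held the most tags at the locus and differed little between the groups. It held 1034, 1040 and 1049 tags in the oil libraries and 1187, 1222 and 1128 in the tamoxifen libraries. The groups did not overlap, and the ratio of the means was 1.13 (log2 fold change 0.18 ± 0.07, SE). The peak 1134 bp upstream was second, with 430, 415 and 412 tags after oil and 463, 448 and 435 after tamoxifen. Its log2 fold change of 0.10 ± 0.10 (SE) was the smallest of the 25. The authors' limit of 3 tags per position bears most on such dense peaks: the promoter peak held 2754 tags per kb after oil, against 472 in the peaks just past the gene end. Its effect on the ratio of 1.13 was not tested. The weak peak 1750 bp upstream overlapped between the groups (0.18 ± 0.31, SE).

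Across the gene the difference widened with distance from the TSS. The peak at 437 bp, in the 5′ UTR, held 355, 326 and 344 tags after oil and 483, 412 and 376 after tamoxifen (log2 fold change 0.31 ± 0.12, SE). The peak at 1477 bp, in the coding part, had means of 304 and 439 (0.53 ± 0.12). The peaks at 2112 and 2851 bp, both in the 3′ UTR, had means of 168 and 269 (0.69 ± 0.14) and of 160 and 270 (0.76 ± 0.14). In all 4 the groups did not overlap. Together these 4 gene body peaks held 1019, 915 and 985 tags after oil and 1481, 1457 and 1268 after tamoxifen, a ratio of 1.44.

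**Figure D2:**
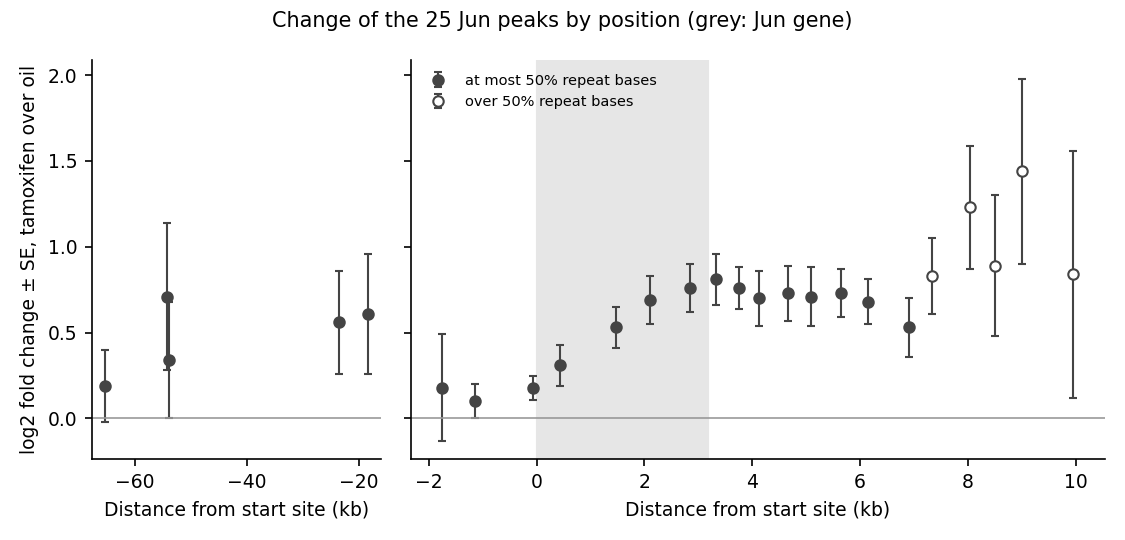
Log2 fold change ± SE (tamoxifen over oil, DESeq2) of each of the 25 Jun peaks against its distance from the TSS (kb), with the far upstream peaks in the left panel; open symbols mark peaks of which over 50% of the bases are masked as repeats, and grey marks the gene. Values go from 0.18 at the promoter to 0.81 just past the gene end, then stay between 0.53 and 0.83 to 7332 bp, beyond which the errors widen.

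Open chromatin did not stop at the end of the gene. In the 7 kb past it lay 13 peaks, with gaps of at most 425 bp between them. They held 37.6% of all Jun tags after oil and 45.0% after tamoxifen, and 62.8% of the gain. The nearer 7, centred 3319 to 6154 bp from the TSS, summed to 1311, 1126 and 1314 tags in the oil libraries and to 2113, 2265 and 1860 in the tamoxifen libraries. The groups were well apart, with means of 1250 ± 108 and 2079 ± 205 (SD, n = 3 libraries each) and a ratio of 1.66. The 7 peaks were much alike in their change, with log2 fold changes of 0.68 to 0.81, and in each of them the groups did not overlap. The peak over the annotated end of the gene, at 3319 bp, held 176, 131 and 151 tags after oil and 256, 288 and 257 after tamoxifen. The peak at 4671 bp that holds the AP-1 letters shown above had 136, 112 and 162 tags after oil and 218, 253 and 214 after tamoxifen (log2 fold change 0.73 ± 0.16, SE), within the range of its 6 neighbors.

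The farther 6 peaks past the end, centred 6913 to 9953 bp from the TSS, summed to 381, 347 and 319 tags after oil and to 897, 617 and 369 after tamoxifen. The tamoxifen libraries were spread widely here: replicate 1 was the highest and replicate 4 lay between oil replicates 1 and 2, so the groups overlapped. The log2 ratio of the sums was 0.85, against 1.12 without tamoxifen replicate 4 and 0.50 without tamoxifen replicate 1. The 5 largest changes of the locus by the rule used to name peaks were all in this stretch. The largest, at 8995 bp, had 36.4, 36.6 and 22.8 tags after oil and 140, 82.4 and 40.5 after tamoxifen (log2 fold change 1.44 ± 0.54, SE), and 0.93 without tamoxifen replicate 1. It is shown because of that change (chr4:95043127-95043326, minus strand). All of its bases are masked as repeats in the reference.

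Peak 8995 bp past the TSS: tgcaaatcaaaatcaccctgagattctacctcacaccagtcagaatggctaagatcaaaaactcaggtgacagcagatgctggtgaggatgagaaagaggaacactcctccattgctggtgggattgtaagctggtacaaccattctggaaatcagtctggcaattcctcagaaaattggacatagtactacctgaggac

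The peak at 8032 bp had 28.7, 24.4 and 27.3 tags after oil and 98.6, 57.4 and 30.7 after tamoxifen (1.23 ± 0.36), and 0.73 without tamoxifen replicate 1. The peak at 7332 bp had 97.6, 93.1 and 90.5 tags after oil and 217, 179 and 106 after tamoxifen (0.83 ± 0.22). In both, every tamoxifen library was above every oil library, with replicate 4 close to the oil level. The peak at 8494 bp had 30.9, 23.4 and 17.5 tags after oil and 73.0, 39.0 and 20.95 after tamoxifen (0.89 ± 0.41), and 0.30 without tamoxifen replicate 1. The peak at 9953 bp had 61.2, 56.1 and 32.3 tags after oil and 166, 72.4 and 30.3 after tamoxifen (0.84 ± 0.72), and 0.02 without tamoxifen replicate 1. In these 2 peaks the groups overlapped, and their fold changes rested on that library. All 5 of these peaks had over 50% of their bases masked as repeats, as did 10.6% of the peaks placed on the reference, whose median log2 fold change was -0.08. None (0) of the other 20 Jun peaks did. Reads in repeats can map to more than 1 place, and the part of this in the spread was not tested.

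**Figure D3:**
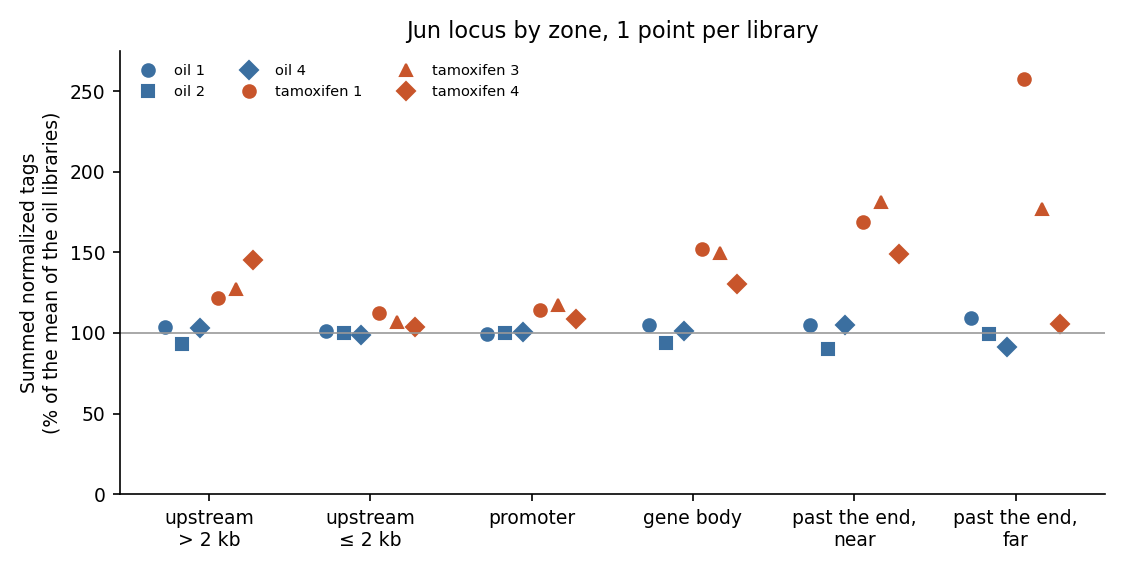
Summed normalized tags of each zone of the locus, as a percent of the mean of the oil libraries, with 1 point per library. The tamoxifen points lie at 108% to 117% at the promoter, at 130% to 152% in the gene body and at 149% to 181% just past the end, and spread from 106% to 257% in the farthest zone.

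The comparison within each library needs no size factor, though the limit on tags per position also bears on the promoter peak as its denominator. Relative to the promoter peak of the same library, the 13 peaks past the end held 164%, 142% and 156% of its tags after oil and 254%, 236% and 198% after tamoxifen. The groups did not overlap, with means of 154% ± 11.0 and 229% ± 28.6 (SD, n = 3 libraries each). For the gene body the means were 93.5% ± 5.29 and 119% ± 6.18, again without overlap. For the 2 peaks within 2 kb upstream they were 43.7% ± 0.902 and 41.5% ± 1.66, with overlap. The zones were drawn after the values were seen.

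Upstream, the 5 peaks beyond 2 kb were weak and lay 18443 to 65410 bp from the TSS. They summed to 186, 168 and 185 tags after oil and to 218, 228 and 260 after tamoxifen, a ratio of 1.31. The groups did not overlap in the sum, and in 3 of the 5 peaks. Here tamoxifen replicate 4 was the highest library, unlike in the gene body and past the end. The peak at 54340 bp upstream, the weakest of the 25, had 12.1, 15.1 and 15.2 tags after oil and 25.6, 20.1 and 25.1 after tamoxifen (0.71 ± 0.43, SE). Of the 25 peaks, 17 were in the peak lists of both groups, 6 only in that of tamoxifen and 2 only in that of oil.

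The neighboring genes lie on the far side of the downstream stretch. Within 100000 bp of the Jun TSS lay 5 more peaks, assigned to Mysm1, which encodes a histone H2A deubiquitinase, and to Eqtn. The strongest, at chr4:94978988-94979246, had 742, 741 and 729 tags after oil and 744, 782 and 722 after tamoxifen (log2 fold change 0.02, adjusted p = 0.992 in DESeq2). The other 4 had log2 fold changes of 0.09 to 0.40, with adjusted p of 0.745 to 0.991. In each of the 5 the groups overlapped.

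Long open stretches past the gene end were not common. Of 12866 protein-coding genes with no other protein-coding gene in the 7 kb past their end, 65.1% had no peak there. Jun had 13 peaks, which covered 70.1% of the window, and only 22 genes had as many or more, Jun included. Of the 13 peaks, 10 were in the oil peak list. The count and the coverage thus rest partly on peaks listed only after tamoxifen, and the window was drawn after the values were seen. In oil tags of the window, 68 genes reached the level of Jun or more. Genes with at least as many peaks included Btg1, Hspa1b, Ubb and Hmgb2. The log2 ratio of tamoxifen to oil in the window was 0.01 at Btg1, -0.06 at Ubb, -0.18 at Hmgb2 and -1.16 at Hspa1b, against 0.76 at Jun. Over the 868 such genes with at least 5 peaks the median was -0.05. The log2 ratios of 2 others were as high as at Jun, Rgs1 with 1.12 and Csf2rb with 0.92, which were named after their values were seen. These values come from the contrast on which Jun was selected and are set side by side without a test.

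**Figure D4:**
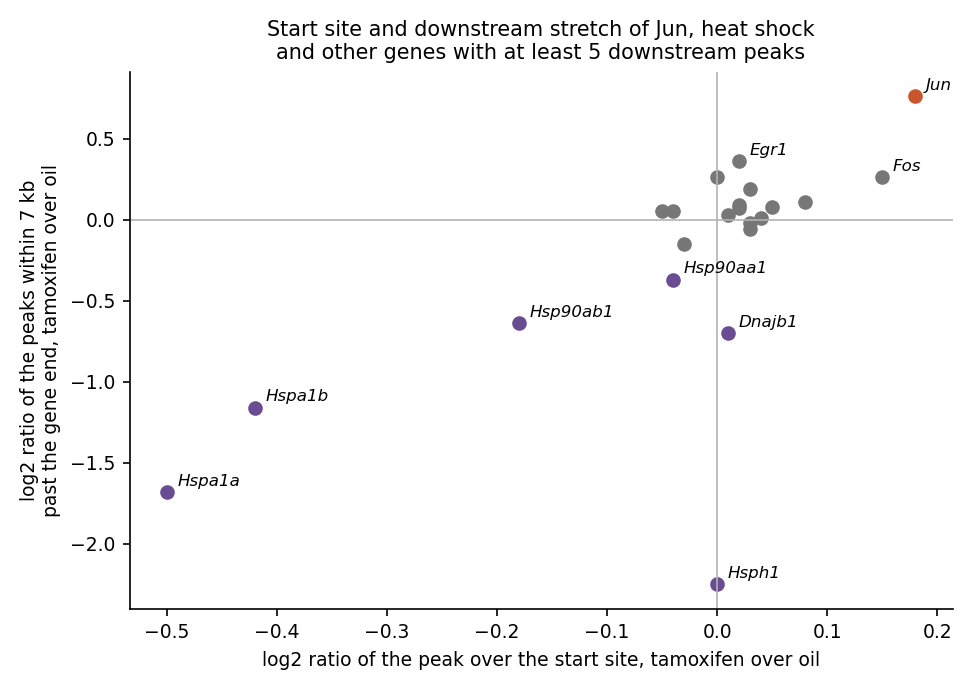
Log2 ratio (tamoxifen over oil) of the summed peaks within 7 kb past the gene end against that of the peak over the start site. Shown are Jun, heat shock genes (purple) and a selection of the other genes with at least 5 such peaks, not all 868. At Hsph1, Hsp90ab1, Fosb, Junb and Ier3 another protein-coding gene lies in the window, so these are not among the 868. Jun is at 0.76 and 0.18. Most other plotted genes lie near 0 on both axes. The plotted heat shock genes lie below 0 on the vertical axis, down to -2.25 at Hsph1. Csf2rb (0.92 past the end) and Hspa8 (-0.40) had no value over the start site and are not plotted. Rgs1 (1.12 past the end and 0.79 over the start site) was not in the selection and is not plotted either. Genes with ratios as high as at Jun past the end are named in the text.

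Other immediate early genes varied in how much of this window was open. Peaks covered 67.5% of it at Klf6, 60.9% at Dusp1, 53.3% at Btg2, 25.5% at Fos and 18.8% at Egr1, and Atf3 had no peak there. The log2 ratio past the end was 0.26 at Fos, 0.36 at Egr1, 0.19 at Btg2, 0.16 at Dusp1, 0.08 at Klf6, 0.05 at Ier2 and -0.15 at Ier5. At Junb and Jund, where other protein-coding genes lie in the window, it was 0.11 and 0.08. The groups overlapped at each of these but Dusp1. At the heat shock genes, which encode chaperones, the log2 ratio was -1.68 at Hspa1a and -0.70 at Dnajb1, where all tamoxifen libraries lay below all oil libraries. It was -0.37 at Hsp90aa1 and -0.40 at Hspa8, where the groups overlapped. Of 243 peaks of 7 heat shock genes, 74 passed at an adjusted p under 0.05, all lower, against 0.167% of all peaks, and the median log2 fold change was -0.60. That count was 25 without oil replicate 4 and 44 to 50 without oil replicate 1, oil replicate 2, tamoxifen replicate 1 or tamoxifen replicate 3. The heat shock list was chosen with earlier results of these data known, so its counts and adjusted p are given as a description. The peak with the smallest adjusted p, of Hsph1 at chr5:149612635-149613126, fell from 168 ± 36.8 to 35.9 ± 12.2 tags (SD, n = 3 libraries each; adjusted p = 9.87e-16, DESeq2).

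The partners of c-Jun were tested in the same fit of all peaks, at an adjusted p under 0.05 in DESeq2. Of 298 peaks of 13 dimer partners, 6 rose and 0 fell, with a median log2 fold change of 0.06. This is 2.01% of the list, near the 1.22% of all peaks that rose, and is no result about the list. All 6 belonged to Batf, Batf3 and Jdp2, smaller AP-1 proteins that pair with Jun proteins. The promoter peak of Batf had 66.2, 109 and 98.1 tags after oil and 176, 175 and 126 after tamoxifen. It rose by a log2 fold change of 0.79 ± 0.20 (SE, adjusted p = 0.0126, DESeq2), and the groups did not overlap. A peak 29847 bp from the Jdp2 TSS rose from 33.5 ± 4.57 to 76.4 ± 14.2 tags (SD, n = 3 libraries each; adjusted p = 0.00241, DESeq2), and a peak 12704 bp upstream of Batf3 from 117 ± 10.6 to 183 ± 27.1 (adjusted p = 0.0173, DESeq2). The peaks nearest the TSS of Jdp2 and Batf3 did not pass. Their log2 fold changes were 0.60 (adjusted p = 0.736, DESeq2) and -0.25 (adjusted p = 0.815, DESeq2). The count of 6 depended on single libraries: it fell to 0 without tamoxifen replicate 1 or replicate 3 and to 2 or 1 without any 1 oil library, and was 10 without tamoxifen replicate 4.

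The best known partners did not pass at their promoters. The peak nearest the TSS had a log2 fold change of 0.15 at Fos (523 ± 19.9 to 581 ± 49.96 tags) and 0.08 at Junb (1059 ± 39.8 to 1120 ± 68.4). At Atf3 it was 0.27 (197 ± 28.2 to 238 ± 26.8). At Jund it was 0.04 ± 0.38 (SE) on a weak peak (26.2 ± 9.98 to 27.2 ± 1.12), too few tags to show whether that promoter changed. Adjusted p at these peaks ran from 0.594 to 0.997 in DESeq2. In the JNK cascade, which passes stress signals to c-Jun, 0 of 101 peaks passed in DESeq2, with a median of 0.01. Of all peaks, 1.22% passed as higher and 0.167% as lower, so a count of 0 is no result about the list. An unadjusted p under 0.05 in DESeq2 was reached by 7, beside 6.18% of all peaks as higher and 2.84% as lower. With edgeR 2 passed, as with DESeq2 without tamoxifen replicate 4. The promoter of Mapk8, the gene of the kinase JNK1, held 617 ± 24.4 and 614 ± 30.4 tags (SD, n = 3 libraries each).

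Of 114 peaks of genes that limit c-Jun or JNK, 0 rose and 1 (0.88%, against 0.167% of all peaks that fell) fell, 6144 bp upstream of Dusp1, which encodes a phosphatase of JNK and other MAP kinases. It had 130, 112 and 119 tags after oil and 53.6, 47.4 and 78.7 after tamoxifen (means 120.3 ± 9.31 and 59.9 ± 16.6, SD, n = 3 libraries each; adjusted p = 0.00148, DESeq2). It did not pass without oil replicate 1 or without tamoxifen replicate 3, where the adjusted p reached 0.0848. Without tamoxifen replicate 4, 2 peaks of the list fell. The Dusp1 promoter peak did not pass (-0.09 ± 0.09).

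Of 103 peaks of known AP-1 target genes, 2 rose and 0 fell, with a median of 0.06. This is 1.94% of the list, near the 1.22% of all peaks that rose, so that both are described as single peaks. The promoter peak of Plaur, the urokinase receptor, had 234, 314 and 279 tags after oil and 433, 406 and 440 after tamoxifen. It rose by a log2 fold change of 0.63 ± 0.12 (SE, adjusted p = 8.31e-05, DESeq2) and passed without any 1 library. A peak 47014 bp upstream of Cd44, an adhesion receptor, rose from 43.9 ± 10.9 to 111 ± 35.6 tags (SD, n = 3 libraries each; adjusted p = 0.000236, DESeq2), though not without tamoxifen replicate 3 (adjusted p = 0.0786, DESeq2). The peak nearest the Cd44 TSS did not pass (log2 fold change 0.06, adjusted p = 0.979, DESeq2). Without tamoxifen replicate 4, 5 peaks of this list of target genes rose and 1 fell. Among 360 peaks of 12 immediate early genes outside AP-1, 3 rose, all of Egr3, and 0 fell, which is 0.83% of the list against the 1.22% of all peaks that rose. One of them, 98319 bp upstream, went from 37.0, 45.3 and 43.9 tags to 172, 187 and 121 (log2 fold change 1.92 ± 0.23, SE; adjusted p = 1.84e-13, DESeq2). The peak nearest the Egr3 TSS did not pass (log2 fold change 0.11, adjusted p = 0.982, DESeq2). Without tamoxifen replicate 4, 13 peaks of this list of immediate early genes rose and 1 fell.

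The genes whose summed tags followed Jun most closely over the 6 libraries were Arhgef28, Gcnt4, Cdc42bpb, Acox2 and Mcf2l. Likeness was the root mean square difference of log2 tags, each gene centred on its own mean, among 11419 genes with at least 5 peaks. It was 0.0385 to 0.0436 for these 5, against a median of 0.267. Arhgef28 held 362, 343 and 340 tags after oil and 517, 510 and 419 after tamoxifen. Its tamoxifen replicate 4 was the lowest of its group, which the choice by likeness to Jun favors. Each of the 5 had 1 peak that passed, against 11 for Jun.

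Markers of other cells and of blasts were read as a check of the sort. The TSS peak of Kit, on which the cells were sorted, was open in all libraries (761, 764 and 747 tags after oil) and did not pass (log2 fold change 0.05 ± 0.08). That of Cd34, a marker of immature cells, rose from 94.6 ± 21.8 to 270 ± 60.5 tags (SD, n = 3 libraries each; adjusted p = 8.32e-12, DESeq2). Summed tags of 18 peaks of T cell genes ran from 957 to 1080 after oil and from 1159 to 1220 after tamoxifen. Of these, 1 peak (5.56%, against 1.22% of all peaks that rose) rose, in the 3′ UTR of Cd3d, from a mean of 221 to 363 tags. The markers did not move together. The peak nearest the TSS had a lower mean after tamoxifen at Lck (60.6 to 45.1) and Cd3g (21.3 to 16.9) and a higher one at Cd3e, Cd2 and Cd28, without passing. For mature myeloid genes (45 peaks) the ranges were 2615 to 2733 and 2820 to 3035, with 0 peaks passing in DESeq2 (5 at an unadjusted p under 0.05). For B cell genes (37 peaks) they overlapped, and for erythroid genes (55 peaks) they were 7710 to 8044 and 7021 to 7640. No peak of Ms4a1 or Camp was in the table, and the Adgre1 promoter held 11.1 to 23.3 tags per library. Their part in the change at Jun was not tested, and a change in the mix of cells cannot be told apart from a change within cells. The targeted gene gave no check, since its promoter peak held 438 ± 21.8 and 449 ± 17.0 tags (SD, n = 3 libraries each) and the table does not show the deleted bases.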

How the data were processed

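ATAC-seq libraries of 3 oil and 3 tamoxifen samples were analyzed. The authors mapped reads to mm10 with Bowtie2, called peaks with HOMER, merged them and counted tags per peak, per the labels and the methods of the study. The deposited values are estimated counts of raw tags per peak in steps of 0.5, not normalized, with at most 3 tags per position as the file header states, which caps the highest peaks. The peak lists came from the libraries compared here. Total tags were 57.4 to 74.7 M per library and the median peak held 45.0 to 57.0, so counting error is a sizeable part of the spread at weak peaks. Values of 0 of 15 library pairs were identical.

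Tags were rounded and all 175929 peaks were fitted together with DESeq2 1.42.0 (R 4.3.3; Wald test, two-sided, Benjamini-Hochberg adjustment over all peaks), as in the study except that the study left out peaks within 3000 bp of a TSS. The threshold was an adjusted p under 0.05, with or without a fold change over 2. Fits were tested on simulated data. Alternatives were edgeR 4.0.16 (quasi-likelihood, robust), other size factors, a minimum mean of 20 tags, distal peaks, a limit of 25000 bp and leaving out each library. Named Jun peaks were that nearest the TSS, the 5 with the largest absolute log2 fold change at a mean of at least 20 tags and the 3 with the most oil tags; the other Jun peaks were summarized or added after their values were seen. In the lists, up to 4 passing peaks with the smallest adjusted p and the TSS peaks of Junb, Jund, Fos, Atf3, Mapk8 and Dusp1 were named. Jun and the gene lists were chosen with earlier results of these data known. The RefSeq annotation and sequence of GRCm38.p6 gave gene positions, motif matches (200 bp centred on each of 175738 peaks) and masked repeats. The jun2, MEF2-type, CCAAT and GC box letters, the repeat share, the zones and the 7 kb window were added after the values were seen. Single peaks of the erythroid list are not reported here.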

Additional observations from a re-analysis of the deposited data

How the results depend on the processing

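The log2 ratio of the summed Jun tags (0.50) stayed between 0.43 and 0.59 under all 14 alternatives, the replicate block (0.43) and the sum without the promoter peak (0.59, added after seeing the data) included. The count of Jun peaks past both thresholds (0) was 1 with size factors from total mapped tags, 1 with distal peaks alone, 11 with no fold limit and 0 to 4 without 1 library, the 4 being without tamoxifen replicate 4. The count past an adjusted p alone (11) was 6 to 16 without 1 library and 0 with the replicate block. The peaks of the 4 pathway lists past both thresholds (3) numbered 0 with the block, 6 with edgeR, 9 with no fold limit, 1 within 25000 bp and 0 to 7 without 1 library. Those past an adjusted p alone (9) numbered 0 with the block, 5 with distal peaks alone, 20 with edgeR and 1 to 20 without 1 library. The cause was not tested, beyond the fewer peaks or libraries in some fits. The log2 fold change of the TSS peak of Jund (0.04) was -0.17 without oil replicate 1 and -0.04 without oil replicate 2. It was 0.06 without tamoxifen replicate 3 and 0.03 without tamoxifen replicate 4. No value is given for this peak without oil replicate 4 or without tamoxifen replicate 1, so its full range is not known. The log2 fold change of the TSS peak of Mapk8 (-0.01) ran from -0.04 to 0.03 without 1 library, at 0.02 without oil replicate 1. It was 0.00 with total mapped tags. The block used replicate numbers 1 and 4, shared by 4 libraries. The correlation of same-numbered libraries, after subtracting group means, was -0.044 for number 1 and 0.0508 for number 4, so the numbers were not taken as pairs. With it, 56 of all peaks passed, against 2448 with 6 libraries. Counts with 2 libraries in a group rest on a spread pooled over both groups.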
